A study of Rattus norvegicus with 6 samples.

Results

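The 7 genes Aqp4, Mlc1, Atp1b2, Slc14a1, Acsbg1, Clu and Agt, all used as astrocyte genes, were followed in cultured rat oligodendrocyte progenitor cells (OPCs) that received fibrinogen. They were taken by name from the 13355 genes on the arrays, with earlier results of these data known. Values over all genes given beside theirs are therefore background and no test of the set. Of the 7, 4 rose with fibrinogen (Slc14a1, Mlc1, Atp1b2 and Clu), none fell, and 3 did not pass the test (Aqp4, Acsbg1 and Agt). Slc14a1 rose 2.33-fold, Mlc1 1.99-fold, Atp1b2 1.88-fold and Clu 1.60-fold. The call of Clu was lost under 9 of 13 alternative settings, which left 3 of the 7 called, or 2 with the unmoderated variance, where that of Mlc1 was lost too. Of all genes, 4.16% were called higher (555) and 3.00% lower (401); with each array centred on its median the split was 434 higher and 516 lower. None of the 3 genes that did not pass had an unadjusted p under 0.05.

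Astrocytes take up potassium and water around active neurons and can pass them on through endfeet that wrap blood vessels. Aquaporin 4 passes the water, MLC1 acts in the recovery of cell volume after swelling, and the sodium pump with its beta 2 subunit drives the ion gradients. Urea leaves through a transporter encoded by Slc14a1. Acsbg1, Clu and Agt stand beside these transport genes as an astrocyte lipid enzyme and a pair of secreted products.

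The study hybridised RNA from primary OPCs, the dividing glial cells that give rise to myelin-forming oligodendrocytes, to Affymetrix arrays. Fibrinogen, the plasma clotting protein, was given to 3 samples for 48 h in differentiation medium, and 3 unstimulated samples, also titled 48 h, served as controls; their medium is not given. All cells, treated and control, came from neonatal rats of postnatal day 1 to 2 and had recovered for 2 days in medium with NT3 and PDGF, per the labels' protocols. The title concerns BMP signaling turned on by fibrinogen in OPCs and a block of remyelination. Strain, sex and the number of litters or cultures are not given in the sources used here. The p-values therefore measure the spread between these samples, which may be technical.

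Both OPC markers and astrocyte markers were higher with fibrinogen on average. Over 8 measured OPC markers the mean log2 expression was 9.83 to 9.89 on fibrinogen arrays and 9.45 to 9.57 on control arrays, and 4 of the 8 rose. Over 7 measured astrocyte markers (Gfap, Slc1a2, Slc1a3, Gja1, Gjb6, Aldoc and Fgfr3) it was 7.95 to 8.00 with fibrinogen and 7.58 to 7.62 in control, and again 4 rose. Mature oligodendrocyte markers went the other way, at 8.58 to 8.69 with fibrinogen and 9.08 to 9.17 in control, with 6 of 9 lower. Microglia markers averaged 4.45 to 4.49 with fibrinogen and 4.58 to 4.74 in control, and 8 of 10 lay below the median probe on every control array, as did 6 of 6 for endothelium, 7 of 8 for pericytes and fibroblasts and 4 of 5 for ependyma and choroid plexus. Neuron markers averaged 6.95 to 7.04 with fibrinogen and 6.97 to 7.12 in control, with 2 higher and 1 lower of 10. On this log scale no marker is listed at 0. The part of any of these cell types in the changes of the 7 genes was not tested. In RNA from a whole culture, more cells of a type and more transcript per cell cannot be told apart.

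Each of the 7 genes was read by 1 probe set, as the deposited log2 expression, on which 1 unit is a doubling. Values of one gene can be compared between arrays, but not with those of another gene, since probe sets differ in brightness. The median probe of an array stood at 5.84 on each fibrinogen array and 5.78 to 5.80 on the control arrays. Agt lay below that median on all 6 arrays, and no detection call accompanies the values. The groups did not overlap for 4 of the 7 genes, each higher with fibrinogen, against 15.0% of all genes.

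**Figure D1:**
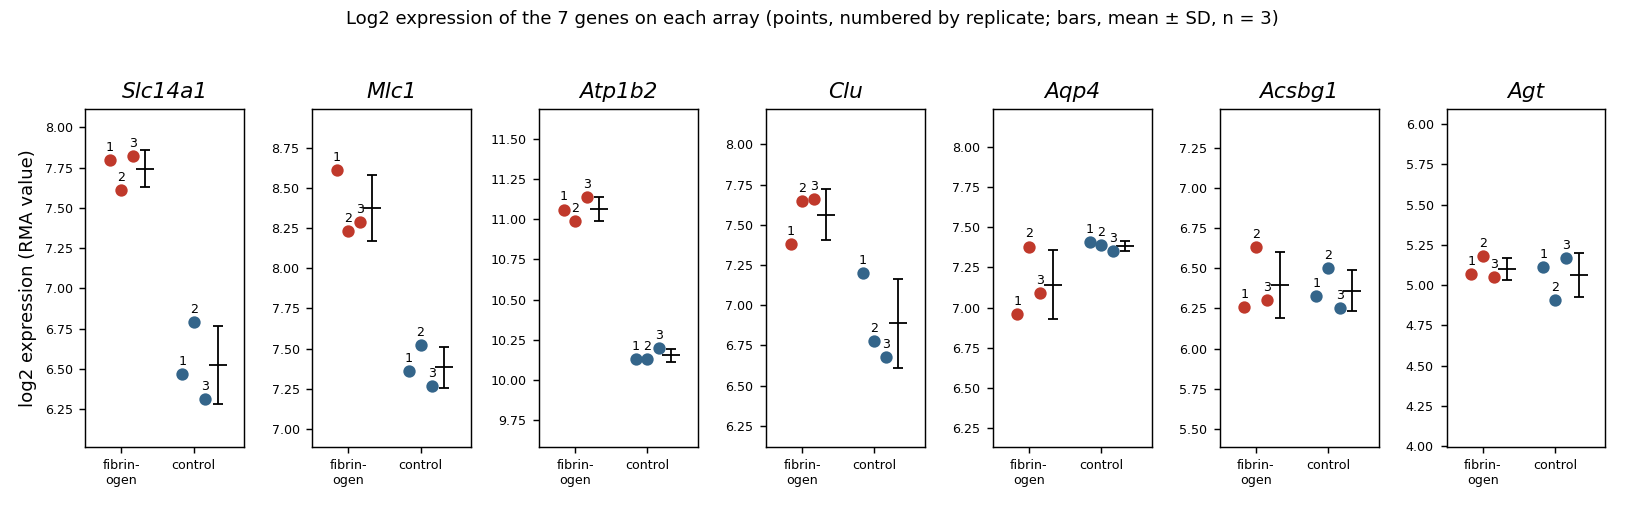
Log2 expression (y axis) of each of the 7 genes on the 3 fibrinogen arrays (red, left) and the 3 control arrays (blue, right); points carry the replicate number, bars are mean and SD, and every panel spans the same height on its own scale. Slc14a1, Mlc1, Atp1b2 and Clu separate the groups, while Aqp4, Acsbg1 and Agt overlap.

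Promoters are shown for the 3 genes with the largest rises, so that their start regions can be read side by side. The sequences are RefSeq's, build GRCr8, each running 5′ to 3′ in the direction of the gene from 250 bases before to 50 bases after an annotated transcript start. RefSeq held such a sequence for 5 of the 7 genes under the array's gene numbers; a gene can have other starts. Capitals mark matches, on either strand, to any of 7 short motifs. The core promoter box was searched as TATAAA, the box bound by NF-Y as CCAAT, and the GC-rich box of SP factors as GGGCGG. The short site of NFI factors was searched as TTGGC, which on one strand can overlap the NF-Y box on the other. The element of STAT factors was TTCNNNGAA, one bound by SMAD proteins was GGCGCC, and that of SOX factors was ACAAAG.
Slc14a1 (chr18:73864594-73864893, minus strand): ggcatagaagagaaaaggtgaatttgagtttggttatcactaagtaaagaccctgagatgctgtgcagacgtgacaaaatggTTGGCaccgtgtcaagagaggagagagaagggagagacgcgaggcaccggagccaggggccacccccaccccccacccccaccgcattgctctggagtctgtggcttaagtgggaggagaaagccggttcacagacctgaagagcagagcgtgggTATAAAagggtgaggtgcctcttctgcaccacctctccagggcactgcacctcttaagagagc
Mlc1 (chr7:121946649-121946948, minus strand): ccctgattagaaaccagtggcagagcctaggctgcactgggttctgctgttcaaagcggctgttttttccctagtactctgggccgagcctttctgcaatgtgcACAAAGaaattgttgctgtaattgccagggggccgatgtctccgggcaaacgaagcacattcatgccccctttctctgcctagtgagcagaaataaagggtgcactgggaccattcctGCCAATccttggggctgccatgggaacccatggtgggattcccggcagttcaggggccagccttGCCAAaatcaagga
Atp1b2 (chr10:54823659-54823958, minus strand): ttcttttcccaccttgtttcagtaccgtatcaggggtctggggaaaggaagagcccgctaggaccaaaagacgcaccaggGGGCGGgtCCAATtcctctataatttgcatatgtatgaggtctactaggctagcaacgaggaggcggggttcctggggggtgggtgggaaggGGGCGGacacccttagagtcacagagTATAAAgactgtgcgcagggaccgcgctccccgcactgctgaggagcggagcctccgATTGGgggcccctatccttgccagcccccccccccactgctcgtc

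No motif was found in all 3 promoters. CCAAT was found in Mlc1 and Atp1b2 and in 37.5% of all promoters. Slc14a1 had TATAAA beginning 13 bases before its start, and Atp1b2 had it 52 bases before; 14.2% of 33469 promoters hold this motif. Mlc1 had TTGGC 28 bases before and 36 bases after its start, the first overlapping its CCAAT, and Slc14a1 had it 168 bases before, against 45.8% of all promoters. Atp1b2 had GGGCGG at 2 places, 170 and 78 bases before the start, and 33.1% of promoters hold it. ACAAAG, in 18.8% of promoters, was found in Mlc1 146 bases before the start. None of the 3 held TTCNNNGAA or GGCGCC, which were found in 8.87% and 11.0% of promoters. Among the genes that did not pass, the Acsbg1 promoter held TTCNNNGAA at 2 places, 210 bases before and 7 bases after the start. The Acsbg1 promoter also held the NF-Y box, and at 2 places each the GC-rich box and the NFI site. The Aqp4 promoters held the NF-Y box, the GC-rich box and the SOX element. Apart from the core promoter box, the motifs found in the 3 promoters were therefore also found in genes that did not pass. These are matches of letters and say nothing of which factor was bound.

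Slc14a1 encodes the urea transporter UT-B, a membrane channel that also passes some water. It stood at 7.80, 7.61 and 7.82 on the fibrinogen arrays, against 6.47, 6.79 and 6.31 on the control arrays. The lowest fibrinogen array exceeded the highest control array, control 2, by 0.82. Means were 7.74 ± 0.12 with fibrinogen and 6.52 ± 0.24 in control (SD, n = 3 each), a log2 fold change of 1.22 (SE 0.13, 95% interval 0.91 to 1.53, limma adjusted p = 0.00392). By log2 fold change it ranked 15 from the top of all genes, and it was among 37 genes called higher by at least 2-fold.

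Slc14a1 was the 1 member called among the urea genes. The list held the other urea transporter, Slc14a2, which has its main role in the kidney, and enzymes and carriers of the urea cycle. Of 11 measured, 1 rose, none fell and 10 did not pass, and the median log2 fold change was -0.07, against 0.003 over all genes. Slc14a2 averaged 4.73 with fibrinogen and 4.77 in control, a log2 fold change of -0.04 (95% interval -0.27 to 0.19). Arg2, the mitochondrial arginase that releases urea from arginine, averaged 7.04 with fibrinogen and 7.21 in control and stayed short of the threshold (change of -0.16, 95% interval -0.33 to 0.004, adjusted p = 0.250). On the control arrays 7 of the 11 lay below the median probe throughout.

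Mlc1 encodes a membrane protein of astrocyte endfeet and cell contacts whose loss in people causes a leukodystrophy with swollen white matter. Its values were 8.61, 8.23 and 8.29 with fibrinogen, against 7.36, 7.52 and 7.27 in control. Fibrinogen 1 was the highest array and the groups stood 0.71 apart at their nearest values. The means of 8.38 ± 0.20 with fibrinogen and 7.38 ± 0.13 in control (SD, n = 3 each) gave a log2 fold change of 0.99 (SE 0.12, 95% interval 0.71 to 1.28, limma adjusted p = 0.00536). The call was lost with the unmoderated variance (adjusted p = 0.0517).

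The list of MLC1 partners and volume-regulated channels held 12 measured genes, Mlc1 included, of which 3 rose, 1 fell and 8 did not pass, with a median log2 fold change of 0.15. Cav1 (caveolin 1, a coat protein of membrane pits) rose 1.79-fold, to 10.64 ± 0.09 with fibrinogen, against 9.79 ± 0.26 in control (SD, n = 3 each; adjusted p = 0.0144). That call was lost without fibrinogen 1 or fibrinogen 2 (adjusted p = 0.0669 and 0.0619). Gprc5b, an orphan receptor, rose 1.28-fold (adjusted p = 0.0318), and Gpr37, a receptor of oligodendrocytes, fell 1.71-fold, to 5.56 ± 0.36 with fibrinogen, against 6.33 ± 0.16 in control (SD, n = 3 each; adjusted p = 0.0487). Leaving out each array in turn always ended the call of Gprc5b (adjusted p = 0.0691 to 0.116). That of Gpr37 held when fibrinogen 3 was left out (adjusted p = 0.0213) and ended for each of the other arrays (up to 0.151). Lrrc8a, the obligatory subunit of the volume-regulated anion channel, averaged 8.79 with fibrinogen and 8.51 in control and stayed short of the threshold (log2 fold change 0.28, adjusted p = 0.119). Lrrc8b, another subunit of that channel, went the other way, at 7.78 with fibrinogen and 8.15 in control. Its log2 fold change of -0.37 did not pass (95% interval -0.61 to -0.14, limma adjusted p = 0.0748). Lrrc8c, Lrrc8d and Lrrc8e had log2 fold changes of 0.14, 0.04 and 0.03 and did not pass. The chloride channel gene Clcn2 averaged 6.64 with fibrinogen and 6.34 in control (log2 fold change 0.30, 95% interval -0.18 to 0.77). Hepacam, which encodes the MLC1 partner GlialCAM, was not analysed here.

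Atp1b2 encodes the beta 2 subunit of the sodium pump, first described as an adhesion molecule on glia; beta subunits carry the pump to the membrane. It read 11.06, 10.99 and 11.14 on fibrinogen arrays, against 10.13, 10.13 and 10.20 on control arrays. The arrays of each group lay close together and the groups were 0.79 apart. Means of 11.06 ± 0.08 with fibrinogen and 10.15 ± 0.04 in control (SD, n = 3 each) gave a log2 fold change of 0.91 (SE 0.08, 95% interval 0.73 to 1.09, limma adjusted p = 0.00166). By p-value it ranked 39 among all genes, ahead of the other 6 genes described here.

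Atp1b1 and Atp1b3, genes of other beta subunits, had negative changes that did not pass. Of 12 measured sodium pump subunit genes, Atp1b2 and Fxyd6 rose, none fell and 10 did not pass, with a median log2 fold change of -0.12. Fxyd6, one of the small FXYD proteins that tune the pump, rose 1.58-fold, to 10.78 ± 0.08 with fibrinogen, against 10.12 ± 0.04 in control (SD, n = 3 each; adjusted p = 0.00476). Atp1b1, the widespread beta subunit, averaged 8.08 with fibrinogen and 8.35 in control, a log2 fold change of -0.27 (95% interval -0.49 to -0.04, adjusted p = 0.167). Atp1b3 averaged 9.00 with fibrinogen and 9.33 in control (log2 fold change -0.33, 95% interval -0.61 to -0.05, adjusted p = 0.172). Both intervals lie wholly below that of Atp1b2.

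**Figure D2:**
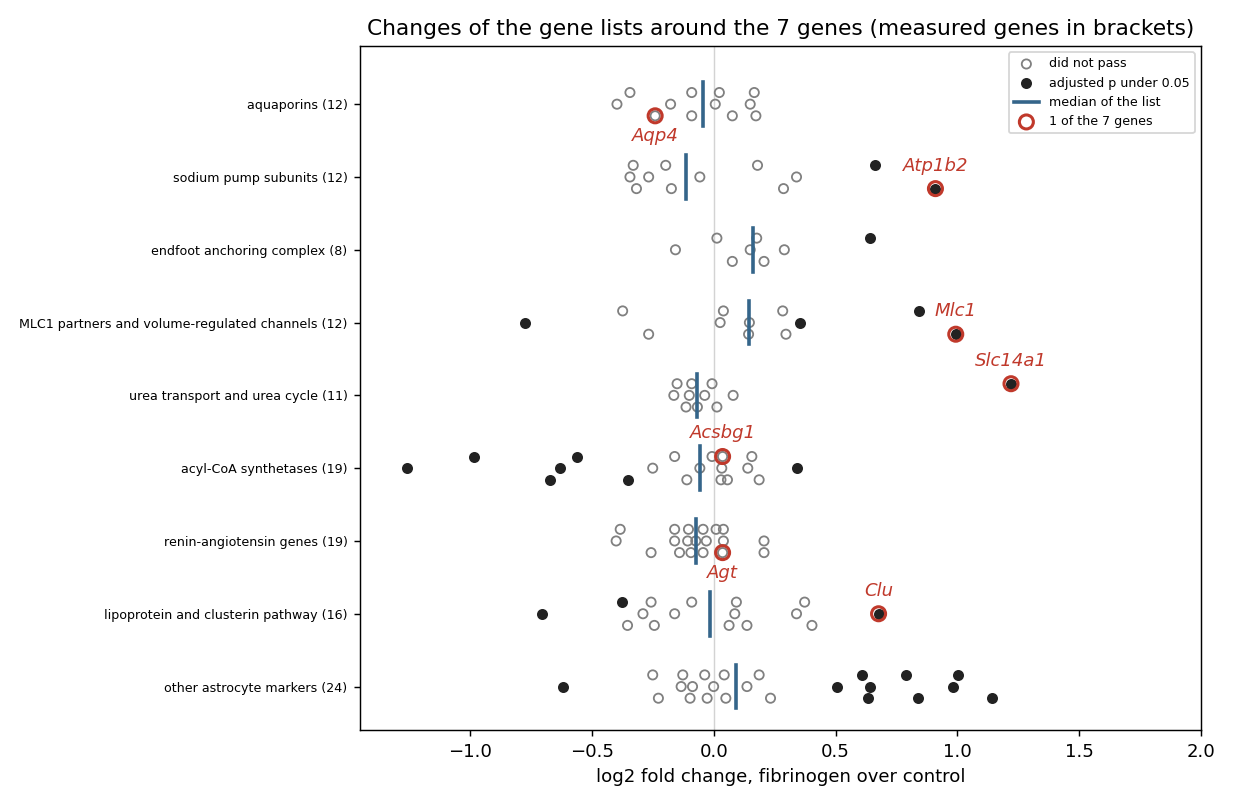
Log2 fold change, fibrinogen over control (x axis), of the measured genes of 9 lists (rows, numbers measured in brackets); filled points passed an adjusted p of 0.05, open points did not, vertical bars are list medians, and red rings mark the 7 genes. Atp1b2, Mlc1, Slc14a1 and Clu sit at the right edge of their lists, whereas the acyl-CoA synthetase list has 6 filled points on the left and Acsbg1 near 0.

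Aqp4, the main water channel of astrocyte endfeet, did not pass the test. It read 6.96, 7.38 and 7.09 with fibrinogen, against 7.41, 7.39 and 7.35 in control. Control arrays lay within a narrow band, and fibrinogen 2 fell inside it while fibrinogen 1 and 3 lay below. Means were 7.14 ± 0.22 with fibrinogen and 7.38 ± 0.03 in control (SD, n = 3 each), a log2 fold change of -0.24 (SE 0.11, 95% interval -0.51 to 0.03, limma adjusted p = 0.292). Without fibrinogen 2 the log2 fold change was -0.36 (adjusted p = 0.106), and without fibrinogen 1 it was -0.15. The upper end of the interval, 0.03, lies below the lower ends for Slc14a1, Mlc1, Atp1b2 and Clu.

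No aquaporin gene passed the test in limma, and none had an unadjusted p under 0.05. Over all genes 4.16% were called higher and 3.00% lower, so no call among 12 genes is near the background. Of the 12 measured, 6 changes were positive and 6 negative, and 10 genes lay below the median probe on every control array. The smallest p belonged to Aqp1, a water channel of choroid plexus, at 5.06 ± 0.35 with fibrinogen and 5.46 ± 0.13 in control (SD, n = 3 each; log2 fold change -0.40, 95% interval -0.80 to 0.007, adjusted p = 0.246). Its log2 fold change was -0.23 without fibrinogen 3 and -0.58 without fibrinogen 2. In the complex that holds aquaporin 4 at endfeet, 1 of 8 measured genes rose and 7 did not pass, with a median log2 fold change of 0.16. The gene that rose was Agrn (agrin, a heparan sulfate proteoglycan of the basement membrane), 1.56-fold, at 7.90 ± 0.10 with fibrinogen and 7.26 ± 0.11 in control (SD, n = 3 each; adjusted p = 0.00928). Kcnj10, the Kir4.1 potassium channel found beside aquaporin 4, averaged 10.04 with fibrinogen and 9.87 in control and stayed short of the threshold (log2 change 0.18, 95% interval 0.002 to 0.35, adjusted p = 0.233). Of the 16 genes listed, 8 were not analysed here.

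Acsbg1, the bubblegum acyl-CoA synthetase that activates long and very long fatty acids, showed no difference beyond the spread of the arrays. It read 6.26, 6.63 and 6.30 with fibrinogen, against 6.33, 6.50 and 6.25 in control. The groups overlapped, and replicate 2 was the highest array of each group. Means of 6.40 ± 0.20 with fibrinogen and 6.36 ± 0.13 in control (SD, n = 3 each) differed by 0.04 on the log2 scale (SE 0.12, 95% interval -0.25 to 0.32, limma adjusted p = 0.907). The sign turned with each array centred on its median (-0.01).

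Of 19 measured acyl-CoA synthetase genes, Acsbg1 among them, 6 fell, 1 rose and 12 did not pass; the median log2 fold change was -0.06. Acss2, which makes acetyl-CoA from acetate in the cytosol, fell 2.39-fold, to 8.85 ± 0.10 with fibrinogen, against 10.11 ± 0.03 in control (SD, n = 3 each; adjusted p = 0.00141). Acsl3, a long-chain synthetase of lipid droplets, fell 1.98-fold, to 10.24 ± 0.11 with fibrinogen, against 11.22 ± 0.06 in control (adjusted p = 0.00187). Acsl4, which prefers arachidonate, fell 1.59-fold and Acsl1, another long-chain synthetase, fell 1.47-fold (adjusted p = 0.00411 and 0.0203). The call of Acsl1 held when fibrinogen 3 was left out (adjusted p = 0.0298) and ended for each of the other arrays (0.0515 to 0.0747). Slc27a3 rose 1.27-fold (adjusted p = 0.0468), a call that ended whichever array was left out (adjusted p = 0.0594 to 0.152). Its values lay below the median probe on every array. Acsbg2, the other bubblegum gene, averaged 4.51 with fibrinogen and 4.57 in control (log2 fold change -0.06, 95% interval -0.45 to 0.33).

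Clu encodes clusterin, also called apolipoprotein J, a secreted chaperone that travels with lipoproteins. Its values were 7.38, 7.65 and 7.66 with fibrinogen, against 7.20, 6.78 and 6.68 in control. Control 1 was the highest control array and fibrinogen 1 the lowest fibrinogen array, which left a gap of 0.18 between the groups. Means were 7.56 ± 0.16 with fibrinogen and 6.89 ± 0.28 in control (SD, n = 3 each), a log2 fold change of 0.68 (SE 0.15, 95% interval 0.32 to 1.03, limma adjusted p = 0.0433). The call held without control 1 (adjusted p = 0.0186) and was lost without any other single array (adjusted p = 0.0796 to 0.140). It was also lost with each array centred on its median, with quantile normalization and with the unmoderated variance (adjusted p = 0.0594, 0.0601 and 0.165).

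Clu and Apoe, both genes of apolipoproteins that astrocytes secrete, had changes of opposite sign. Apoe fell 1.30-fold, to 8.05 ± 0.10 with fibrinogen, against 8.42 ± 0.09 in control (SD, n = 3 each; adjusted p = 0.0460), a call that ended whichever array was left out (adjusted p = 0.0595 to 0.152). Of 16 measured lipoprotein genes, 1 rose, 2 fell and 13 did not pass, with a median log2 fold change of -0.01. Scarb1, a receptor for high-density lipoprotein, fell 1.63-fold, to 7.91 ± 0.09 with fibrinogen, against 8.61 ± 0.10 in control (SD, n = 3 each; adjusted p = 0.00547). Lrp1, an endocytic receptor for many ligands, Apoe among them, averaged 8.95 with fibrinogen and 8.55 in control and stayed short of the threshold (log2 change 0.40, 95% interval 0.09 to 0.72, adjusted p = 0.137).

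Agt encodes angiotensinogen, the precursor of the angiotensin peptides, which astrocytes make in the brain. It read 5.07, 5.18 and 5.05 with fibrinogen, against 5.11, 4.91 and 5.17 in control. The groups overlapped, and control 2 was the lowest array. Means of 5.10 ± 0.07 with fibrinogen and 5.06 ± 0.14 in control (SD, n = 3 each) differed by 0.04 on the log2 scale (SE 0.09, 95% interval -0.18 to 0.26, limma adjusted p = 0.873). With each array centred on its median the value was -0.01.

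None of 19 measured renin-angiotensin genes passed the test in limma, and 1 had an unadjusted p under 0.05; 13 changes were negative and 6 positive, and 11 genes lay below the median probe on every control array. The median log2 fold change was -0.07. With 4.16% of all genes called higher and 3.00% lower, no call among 19 genes is also near the background. Enpep, an aminopeptidase that trims angiotensin II, had the smallest p, at 4.46 ± 0.23 with fibrinogen and 4.84 ± 0.09 in control (SD, n = 3 each; log2 fold change -0.38, 95% interval -0.68 to -0.09, unadjusted p = 0.0179, adjusted p = 0.132, and 0.0486 to 0.325 over the alternatives). The receptor genes Agtr1a and Agtr2 averaged 4.05 and 3.73 with fibrinogen, against 4.12 and 3.77 in control, and Ace, which makes angiotensin II, averaged 4.27 with fibrinogen and 4.37 in control.

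Across the 7 genes the order of the log2 fold changes was Slc14a1, Mlc1, Atp1b2, Clu, Acsbg1 and Agt at the same value, and Aqp4. The intervals of the first 3 overlap one another, and that of Clu overlaps all 3 and, at its lower end, also that of Acsbg1. The intervals of Acsbg1, Agt and Aqp4 overlap as well. The median over the 7, which were chosen with earlier results of these data known, was 0.68, against 0.003 over all genes. The rises of Slc14a1, Mlc1 and Atp1b2 passed with any one array left out, at adjusted p-values up to 0.0273, 0.0257 and 0.0156.

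**Figure D3:**
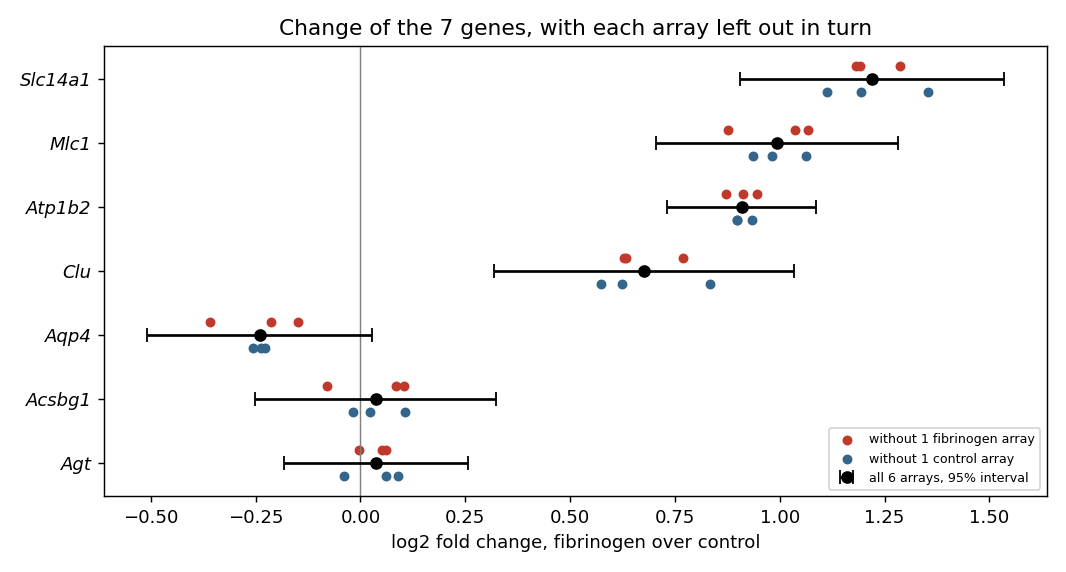
Log2 fold change, fibrinogen over control (x axis), of the 7 genes (rows); black points and bars are the value from all 6 arrays with its 95% interval, and coloured points the value with 1 fibrinogen array (red) or 1 control array (blue) left out. The points of Slc14a1, Mlc1, Atp1b2 and Clu stay to the right of 0 throughout, and those of Aqp4 to the left. The interval of Aqp4, -0.51 to 0.03, crosses 0.

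**Figure D4:**
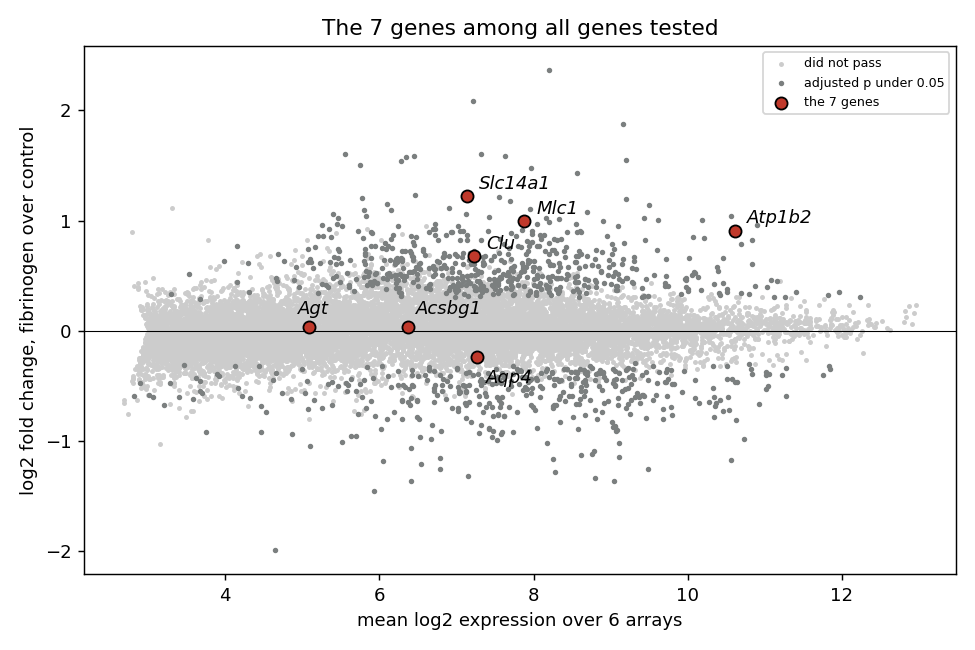
Log2 fold change, fibrinogen over control (y axis), against mean log2 expression over the 6 arrays (x axis) for all 13355 genes, with genes past an adjusted p of 0.05 in dark grey and the 7 genes in red. Slc14a1, Mlc1 and Atp1b2 lie at the upper edge of the cloud, Clu lies lower among the called genes, and Aqp4, Acsbg1 and Agt lie within the genes that did not pass.

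Of 24 measured astrocyte genes besides the 7 followed here, 9 rose, 1 fell and 14 did not pass, with a median log2 fold change of 0.09. Over all genes 4.16% were called higher and 3.00% lower, which is background and no test of a list chosen with earlier results known. Among the 14 were Aldoc, at 10.68 with fibrinogen and 10.63 in control, and S100b, at 7.18 with fibrinogen and 7.27 in control. This list includes all the measured astrocyte markers given above, so it is not a separate set from them. A further 6 listed genes, Aldh1l1, Glul and Sox9 among them, were not analysed here. Ndrg2, a cytosolic protein of astrocytes, rose 2.20-fold, to 10.06 ± 0.10 with fibrinogen, against 8.92 ± 0.04 in control (SD, n = 3 each; adjusted p = 0.00149). Gfap, the astrocyte filament gene, and Mfge8, a secreted bridge to phosphatidylserine, rose 2.00-fold and 1.98-fold (adjusted p = 0.00162 and 0.00212). Sparcl1 (hevin, a secreted synapse organiser) rose 1.73-fold (adjusted p = 0.00277). The gene that fell was Cldn10, of the claudin family, 1.53-fold, at 4.54 ± 0.11 with fibrinogen and 5.16 ± 0.20 in control (SD, n = 3 each; adjusted p = 0.0259), a call that held when control 3 was left out (adjusted p = 0.0316) and ended for each of the other arrays (up to 0.0960). Cldn10 lay below the median probe on every array, where signal over background is unknown.

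Genes with the nearest profiles were found by the root mean square difference, in log2 units over the 6 arrays, after each gene was centred on its own mean. With 2 groups this measure mostly finds genes with a like change. Nearest to Slc14a1 were Plce1 (a phospholipase C), Adgrg1 (the adhesion receptor GPR56) and Faim2, at 0.087, 0.098 and 0.145. Nearest to Mlc1 were Cpne8, Rlbp1 (a retinaldehyde-binding protein) and Mmp15 (a membrane metalloprotease), at 0.074, 0.094 and 0.105. For Atp1b2 the nearest were Tmem176b, Igfbp2 (an IGF-binding protein) and Ogfrl1, at 0.020, 0.023 and 0.033. All 9 of these passed the test, with log2 fold changes of 0.87 to 1.19. Clu lay nearest to H2ac21 (a histone H2A gene), Cenpu (a kinetochore protein) and Mfap2 (a microfibril protein), at 0.065, 0.078 and 0.085, of which Cenpu passed (adjusted p = 0.0327; up to 0.115 with 1 array left out). Aqp4 lay nearest to Ndel1, Tmem140 and Gclc (the catalytic subunit for glutathione synthesis), at 0.026, 0.037 and 0.039, and none of these passed (adjusted p = 0.313, 0.462 and 0.318). The nearest to Acsbg1 were Gfra4, Crygs and Ccl9 and to Agt Rpl10, Neurog3 and Ccdc33, which were nearly level between the groups.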

How the data were processed

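Per the labels' protocols, RNA of the 6 samples (3 fibrinogen, 3 control) was purified on RNeasy columns with DNase, then amplified and biotinylated with NuGEN reagents. The deposited values are log2 expression, 1 row per probe set and 1 column per array, given by the authors to 2 decimals; per the submitters' processing notes the tools were RMA and limma, and their settings are not given in the sources used here. Promoters and gene order are RefSeq's, build GRCr8. Of 26312 rows, 23631 have a value on every array. Probes with 1 gene symbol in the platform annotation were kept, and each gene was read by its probe with the highest mean, which gave 13355 genes; all 7 members matched a RefSeq gene number.

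The 3 fibrinogen arrays were set against the 3 control arrays by a two-sided moderated test in limma 3.58.1 under R 4.3.3, without covariates or a filter on dim genes, with Benjamini-Hochberg adjustment over all 13355 genes and a threshold of 0.05. "Rose" and "fell" mean past it. Precision is limited by the number of arrays (median standard error 0.104 on the log2 scale). The fit was tested on simulated data. Alternatives were a replicate block, 2 other scalings, a filter on dim genes, averaged probes, 2 variance models and each array left out.

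The members and gene lists were chosen with earlier results of these data known. Named are all 7 members, up to 4 called genes per list and direction (otherwise the one with the smallest p), and the 3 nearest profiles per member; other genes named were chosen after their values were seen.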

Additional observations from a re-analysis of the deposited data

How the results depend on the processing

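Across 13 alternatives Slc14a1 and Atp1b2 stayed past the threshold, Mlc1 stayed past it in 12, Clu in 4, and Aqp4 never passed. The count of called members was 3 or 4 except with the unmoderated variance (2). Of all genes, 956 were called; the count was 1617 with trend and robust variance, 500 with the unmoderated variance, and 358 to 592 with 1 array left out, where fewer arrays entered the fit. With the replicate number as a block, 343 genes and 3 of the 7 members were called, and Clu was not (adjusted p = 0.125). Deviations of same-numbered arrays correlated at 0.02, -0.14 and -0.07, and those of differently numbered arrays at -0.10 to 0.17. These values cannot tell whether same-numbered samples shared a culture, and the labels do not say. Besides Clu, the block ended the calls of 9 named genes: Cav1, Agrn, Acsl1, Gpr37, Cenpu, Apoe, Cldn10, Slc27a3 and Gprc5b (adjusted p = 0.0512 for Cav1 to 0.110 for Gprc5b). Besides Clu and Mlc1, the unmoderated variance ended those of Cpne8, Slc27a3, Acsl1, Cav1, Apoe, Cldn10, Cenpu and Gpr37 (adjusted p = 0.0569 for Cpne8 to 0.185 for Gpr37). Slc27a3 was also lost under both other scalings and with trend and robust variance (adjusted p = 0.0664, 0.0655 and 0.106).

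The sign of values near 0 turned. With each array centred on its median, which moves the median change of all genes to -0.043, the log2 fold change was -0.01 for Acsbg1 and Agt, -0.033 for Ccl9 and -0.023 for Rpl10, and with quantile normalization -0.018 for Acsbg1 and -0.021 for Rpl10. With 1 array left out it ranged from -0.08 to 0.11 for Acsbg1, -0.04 to 0.09 for Agt, -0.09 to 0.125 for Gfra4, -0.03 to 0.16 for Crygs, -0.065 to 0.073 for Ccl9, -0.057 to 0.068 for Rpl10, -0.005 to 0.115 for Neurog3 and -0.03 to 0.125 for Ccdc33. The cause was not tested. Gfra4 and Neurog3 have no value without the dimmest genes. Signal over background is unknown for dim probes such as that of Agt.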

Other observations

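Most measured genes next to the 7 on the chromosome did not pass the test, as was so of most genes tested. Neighbours were taken by the order of protein-coding genes in RefSeq's GRCr8 annotation, a comparison chosen after the members' values were seen. Of 14 such neighbours, 9 were measured, 1 rose and 8 did not pass, with log2 fold changes of -0.26 to 0.38. Over all genes 4.16% were called higher and 3.00% lower, so this count is near the background. Slc14a2 lies next to Slc14a1 and was at -0.04 on the log2 scale, beside the rise of 1.22 of Slc14a1. Shbg, next to Atp1b2, averaged 5.07 with fibrinogen and 5.33 in control and did not pass (adjusted p = 0.502). Scara3 and Gulo, on either side of Clu, were at 0.26 and 0.04 on that scale and did not pass. Slc14a2, Shbg, Scara3 and Gulo averaged below 5.78, the lowest array median, in both groups, and signal over background is unknown for such dim probes. The neighbour that rose was Kctd1, next to Aqp4, at 6.84 with fibrinogen and 6.46 in control (log2 fold change 0.38, limma adjusted p = 0.0378), while Aqp4 itself did not pass. How the call of Kctd1 fared under the alternative settings was not examined. No neighbour of Mlc1 was analysed here.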
